A study of Bos taurus with 55 samples.

Results

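The genes described here encode the nuclear subunits, assembly factors and inhibitor of respiratory complexes II, III, IV and V in the mammary gland of lactating dairy cows. They were chosen by symbol alone: SDHA to SDHD, CYC1, CYCS, and every symbol starting with UQCR, with ATP5 or with COX and a digit. The choice found 44 genes among the 6636 genes named on the array, each with 1 probe set of the 10680 tested. Complex II had 4 members, complex III 8, complex IV 16 and complex V 16. CYCS, which encodes cytochrome c, and subunit genes such as COX5A, UQCRC2 and ATP5MG were not analysed here, since no probe set carried their names.

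The respiratory chain sits in the inner mitochondrial membrane and passes electrons from fuel molecules to oxygen while it moves protons out of the matrix. Complex II feeds electrons from succinate into ubiquinone, complex III hands them to cytochrome c, complex IV reduces oxygen, and complex V, the ATP synthase, lets protons back in and makes ATP. Milk secretion is a large user of that ATP, since the alveolar cells make milk fat, protein and lactose and transport ions against gradients.

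The study asked how unsaturated oils in the ration alter gene expression in the gland of Holstein-Friesian cows in mid-lactation. For 23 days (period I), 7 cows each received a basal diet with 2.7% of an oil: rapeseed (rich in oleic acid), soybean (linoleic acid), linseed (alpha-linolenic acid) or equal parts of these 3. Over the next 28 days (period II) all 28 cows ate the control diet, which held no added oil. Each period closed with a biopsy, on average 176 days into lactation for the oils and 204 for the control. All cows grazed ryegrass and clover pasture by day and ate a mixed ration of maize silage, grass silage and concentrate at night, in both the oil period and the control period as far as the labels say. The oil period gave 28 arrays and the control period 27 (for 1 linseed cow only period I was analysed here), so 27 cows carry the comparison. Every cow had the oil first, and no cow stayed on the control diet throughout, so oil feeding, order and stage of lactation cannot be told apart. Likewise, 25 of the 28 oil period arrays carry name prefix 1 and 25 of the 27 control period arrays carry name prefix 2.

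Levels are log2 of the deposited intensities, and a change is the oil period minus the control period within cow, with its standard error. A gene is said to have risen or fallen in the oil period relative to the later control period when limma's adjusted p was under 0.05 over all 10680 probe sets. The milk protein genes CSN1S1, CSN1S2, CSN3, LALBA and PAEP had median levels between 13.1 and 14.2 over the 55 arrays, against a median of 3.34 over all probe sets, so the arrays carry the markers of the labelled tissue. Median intensity per array, on the linear scale before log2, lay between 9.47 and 12.1. There were 7 arrays from 6 cows (the oil period of cows 5, 10 and 12, the control period of cows 1, 2, 5 and 15) that stood apart, with a mean correlation to all others of 0.911 to 0.951, where the remaining arrays had 0.961 to 0.975. A biopsy holds many cell types, and in such bulk samples fewer cells of a type and less RNA per cell cannot be told apart.

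Genes of complexes III, IV and V were mostly higher in the oil period, by small amounts, and genes of complex II did not pass the test. Of the 44 members, 24 rose, 5 fell and 15 passed in neither direction, against a background of 18.8% of all probe sets that rose and 15.6% that fell (34.4% in all). The median change was 0.16 over the members and 0.03 over all probe sets. The median rise among the 24 was 0.30, or 1.23-fold, and only the ATP synthase gene ATP5MC1 rose by more than 1.5-fold. Among the 5 falls the median was -0.23, and only the complex III gene UQCRC1 fell by more than 1.5-fold. The arrays of the oil period and the control period overlapped for every member, as for all probe sets (0% of which had ranges that did not overlap). Without the 6 cows with an array apart, the counts were again 24 rises and 5 falls, and the median change was 0.19.

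**Figure D1:**
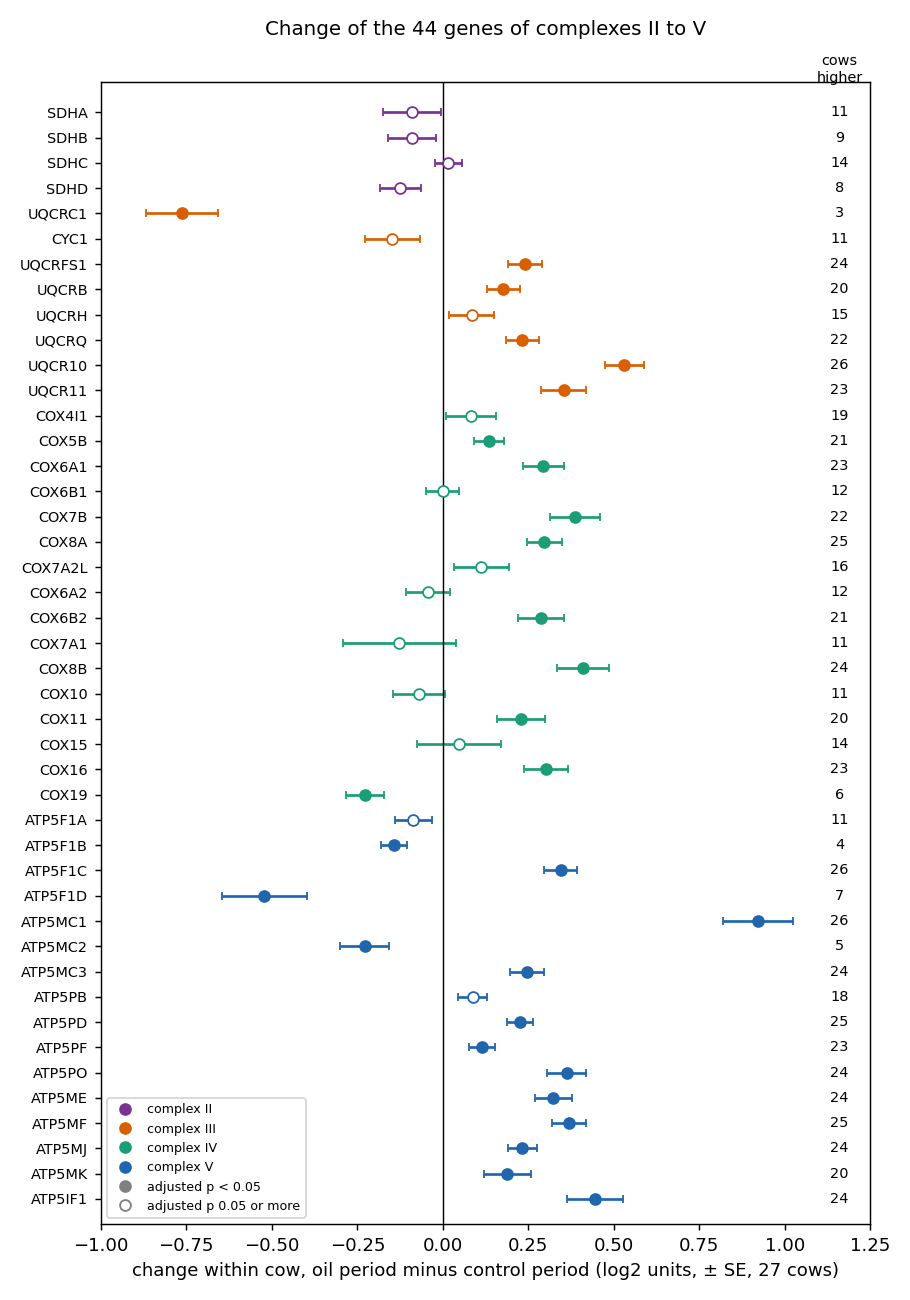
Change within cow of each of the 44 genes, oil period minus control period, in log2 units with the standard error over 27 cows; colours give the complex, filled points passed an adjusted p of 0.05 and open points did not, and the right column counts the cows that were higher in the oil period. Complex II lies around 0, and ATP5MC1 (0.92) and UQCRC1 (-0.76) lie farthest out.

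Complex II, succinate dehydrogenase, also belongs to the citrate cycle. Of its 4 genes, 0 rose and 0 fell, where 34.4% of all probe sets were called in either direction. With so few genes, the lack of calls does not set complex II apart from all probe sets. The median change was -0.09. SDHA encodes the subunit that binds succinate and FAD; its level was 6.32 at the lowest, 7.34 at the median and 7.79 at the highest in the oil period, against 6.31, 7.35 and 8.08 in the control period. The groups overlapped fully, 11 of 27 cows were higher on oil, and the change was -0.09 ± 0.08 (adjusted p = 0.425). SDHB, the iron-sulphur subunit, ranged from 8.02 through a median of 8.33 to 8.86 in the oil period and from 7.18 through 8.42 to 9.09 in the control period. Its change was -0.09 ± 0.07 (adjusted p = 0.330), with 9 cows higher. The membrane anchors SDHC and SDHD, which hold the ubiquinone site, changed by 0.02 ± 0.04 (adjusted p = 0.782) and -0.12 ± 0.06 (adjusted p = 0.108). For SDHD the lowest, median and highest levels were 8.38, 8.87 and 9.39 in the oil period, against 8.68, 8.97 and 9.75 in the control period. It was lower on oil in 19 of 27 cows, and 3 oil arrays lay below the lowest control array.

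In complex III, 5 of 8 genes rose and 1 fell, with a median change of 0.20. The shares over all probe sets were 18.8% and 15.6%. Of the rises, 4 were of small accessory subunits, and the fall was of a large core subunit. UQCRC1 encodes core protein 1, one of the pair of large subunits on the matrix side. Its level was 5.38 at the lowest, 6.31 at the median and 7.13 at the highest in the oil period, and 5.62, 7.01 and 7.63 in the control period. The ranges overlapped, but 27 of the 28 oil arrays lay below the control median. UQCRC1 fell by 0.76 ± 0.11 in the oil period relative to the control period (1.70-fold lower, adjusted p = 4.40e-06), and 24 of 27 cows showed that direction. With array number in the fit in place of the cow its sign turned, to 0.24 (adjusted p = 0.366). That fit cannot tell array number apart from differences between cows. UQCRC1 was called lower in 5 of 7 other settings, among them the prefix beside the cow (-1.19, adjusted p = 0.00235). Within prefix 1 it had no call (-0.47, adjusted p = 0.345). Of the redox subunits, CYC1, cytochrome c1, changed by -0.15 ± 0.08 (adjusted p = 0.160) with 11 cows higher. UQCRFS1, the Rieske iron-sulphur protein that takes electrons from ubiquinol, had levels of 8.10, 8.48 and 9.05 (lowest, median, highest) in the oil period, against 7.81, 8.25 and 8.68 in the control period. It was higher on oil in 24 of 27 cows and rose by 0.24 ± 0.05 (adjusted p = 4.48e-04).

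All 5 small accessory subunits of complex III had a positive change, and 4 of them rose, where 18.8% of all probe sets rose. UQCR10 is a small subunit beside cytochrome c1. Its level was 7.92 at the lowest, 8.50 at the median and 9.07 at the highest in the oil period, against 7.51, 7.92 and 8.76 in the control period. All 28 oil arrays were above the control median, although only 2 were above the highest control array. UQCR10 rose by 0.53 ± 0.06 (1.45-fold, adjusted p = 1.68e-07), with 26 of 27 cows higher. It had no call within prefix 1 (0.045, adjusted p = 0.888), which held 2 control arrays, both apart, or with array number (0.15, adjusted p = 0.406). It was called within prefix 2 (0.54, adjusted p = 0.0181) and with the prefix beside the cow (0.44, adjusted p = 0.0281). UQCR11 had levels of 7.95, 8.40 and 9.15 in the oil period, against 7.57, 8.02 and 8.48 in the control period, and 11 oil arrays exceeded every control array. It rose by 0.35 ± 0.07 (adjusted p = 1.72e-04) in 23 of 27 cows. UQCRQ rose by 0.23 ± 0.05 (adjusted p = 5.14e-04, 22 cows higher) and UQCRB, an ubiquinone-binding protein, by 0.18 ± 0.05 (adjusted p = 0.00582, 20 cows higher). UQCRH, the hinge protein between cytochrome c1 and cytochrome c, was the exception, at 0.08 ± 0.07 (adjusted p = 0.338, 15 cows higher).

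**Figure D2:**
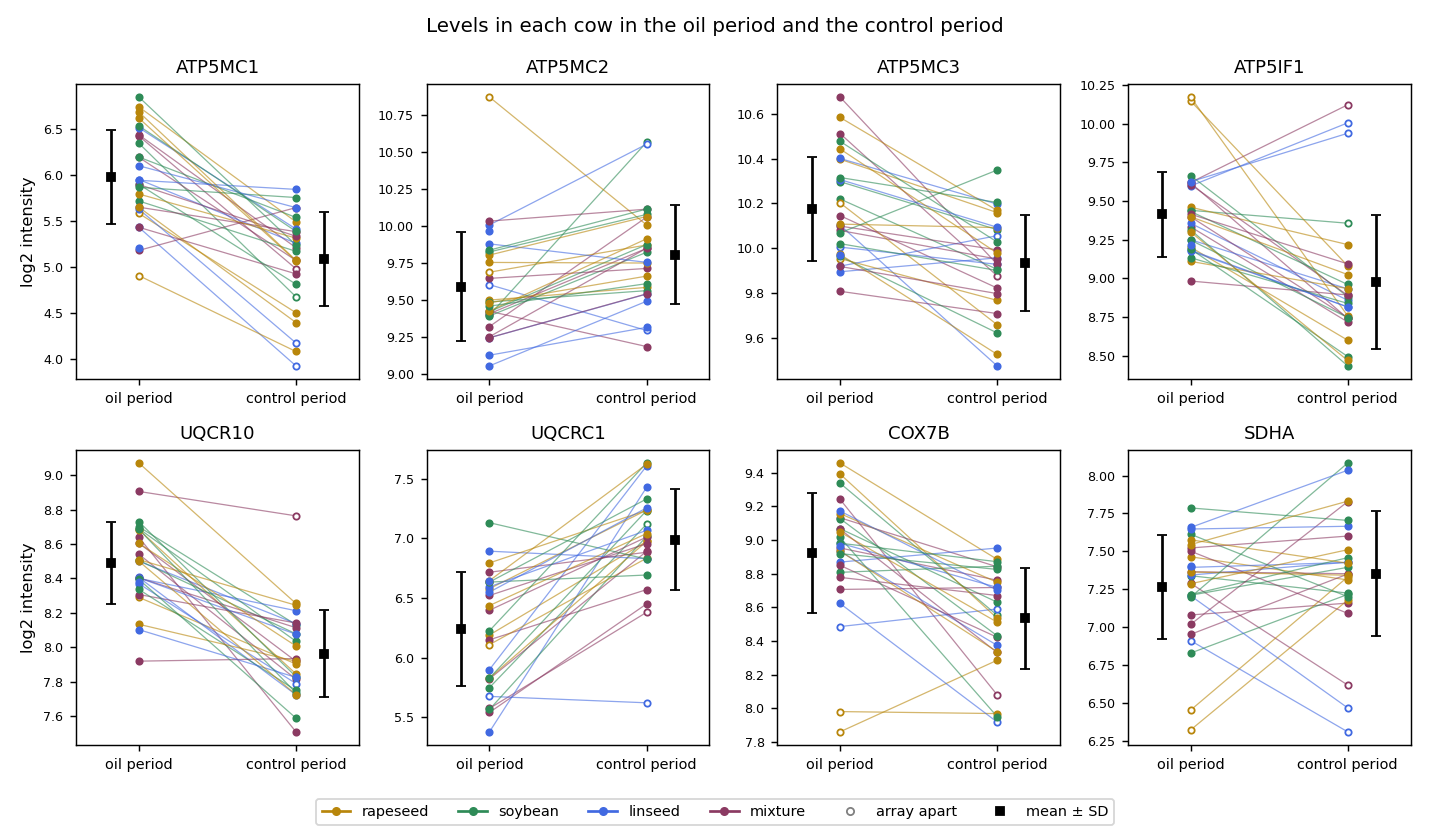
Log2 intensity of 8 genes in each cow, oil period on the left and control period on the right; lines join the arrays of a cow, colours give the oil, open points are arrays that stand apart, and black squares are the mean ± SD of 28 and 27 arrays. ATP5MC1, UQCR10 and ATP5IF1 slope down to the control period in most cows, UQCRC1 slopes up, and SDHA runs in both directions.

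Complex IV, cytochrome c oxidase, holds a catalytic core made in the mitochondrion and nuclear subunits around it. Among the 16 complex IV genes 8 rose and 1 fell, where 18.8% of all probe sets rose and 15.6% fell. Their median change was 0.12. Of the 6 general structural subunits, 4 rose and none fell by the test (median 0.21). COX7B had levels of 7.86, 8.97 and 9.46 (lowest, median, highest) in the oil period and 7.92, 8.59 and 8.95 in the control period. As many as 16 of the 28 oil arrays lay above the highest control array, while the lowest oil array, of cow 10, stands apart. COX7B rose by 0.39 ± 0.07 (adjusted p = 1.96e-04) in 22 of 27 cows. COX8A, a small subunit that spans the membrane once, had 8.54, 9.32 and 9.75 in the oil period, against 8.55, 9.00 and 9.30 in the control period. It was higher in 25 of 27 cows, with 15 oil arrays above every control array, and rose by 0.30 ± 0.05 (adjusted p = 7.50e-05). COX6A1 ranged from 7.34 through 7.76 to 8.22 in the oil period and from 6.77 through 7.50 to 7.90 in the control period. Its rise was 0.29 ± 0.06 (adjusted p = 4.46e-04) in 23 of 27 cows. COX5B, a zinc-binding subunit on the matrix side, rose by 0.14 ± 0.04 (adjusted p = 0.0154). COX4I1, the subunit at which ATP regulates the enzyme, and COX6B1, which faces the intermembrane space, passed in neither direction. COX4I1 changed by 0.08 ± 0.07 (adjusted p = 0.395, 19 cows higher), and COX6B1 was higher in 12 of 27 cows (adjusted p = 0.998).

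Several complex IV subunits have tissue isoforms, and the bovine heart and skeletal muscle forms COX6A2, COX7A1 and COX8B and the testis form COX6B2 (named so in human and mouse) were on the array. COX6A2, COX6B2 and COX8B were dim, with a mean level under 4, and COX7A1 lay at 4.00. COX8B had levels of 1.53, 2.58 and 3.63 in the oil period, against 1.62, 2.20 and 2.64 in the control period. It was higher in 24 of 27 cows, although the ranges overlapped, and rose by 0.41 ± 0.08 (adjusted p = 1.33e-04). COX6B2 rose by 0.29 ± 0.07 (adjusted p = 0.00170) in 21 cows, whereas its general counterpart COX6B1 did not pass, and its change was the larger in 20 of 27 cows. COX6A2 changed by -0.04 ± 0.06 (adjusted p = 0.624), and its general counterpart COX6A1 had the larger change in 20 of 27 cows. COX8B had a larger change than COX8A in 16 of 27 cows. COX7A1 changed by -0.13 ± 0.16 (adjusted p = 0.578), and single cows ranged from -2.27 in cow 1 to 2.24 in cow 10, which both have an array apart. COX7A2L, which helps complexes III and IV to join into a supercomplex, changed by 0.11 ± 0.08 (adjusted p = 0.285). Beside the rise of COX8B, the only muscle isoform that passed, 3 of 8 markers of skeletal muscle rose (MYL1 by 0.38, MYH1 by 0.31 and TNNC2 by 0.16) and 0 fell. Over all probe sets 18.8% rose and 15.6% fell. Those 3 markers were dim, with means of 2.10, 2.36 and 1.95 in the oil period, and MYH7 changed by -0.13 (adjusted p = 0.330). The mean of the skeletal muscle list ran from 1.67 to 2.43 over arrays of the oil period, against 1.68 to 2.22 in the control period. Its part in the change of COX8B was not tested.

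The complex IV assembly factors with COX names were mixed. COX16, which acts in the building of the copper-bearing COX2 subunit, rose by 0.30 ± 0.07 (adjusted p = 7.23e-04) in 23 of 27 cows, with the opposite sign (-0.17) in the fit with array number. COX11, which delivers copper to the COX1 subunit, rose by 0.23 ± 0.07 (adjusted p = 0.0114) in 20 cows. COX19, a small copper-binding protein of the intermembrane space, had levels of 2.27, 2.80 and 3.22 in the oil period, against 2.32, 2.96 and 3.45 in the control period. It was dim throughout, was lower on oil in 21 of 27 cows, and fell by 0.23 ± 0.05 (adjusted p = 0.00195). Its sign turned within prefix 1 (0.033), which held 2 control arrays, both apart, and with array number (0.29). COX10 and COX15, which make heme A for the enzyme in successive steps, passed in neither direction, at -0.07 ± 0.08 (adjusted p = 0.499) and 0.05 ± 0.12 (adjusted p = 0.798), and both were dim.

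Complex V held the largest rise among the members and the most falls. Of its 16 genes, 11 rose and 3 fell, where 18.8% of all probe sets rose and 15.6% fell. The share of falls was thus near that of all probe sets. The median change was 0.23. The c ring turns in the membrane as protons pass, and ATP5MC1, ATP5MC2 and ATP5MC3 are separate genes whose mature product is the same c subunit. ATP5MC1 had levels of 4.91, 5.92 and 6.85 (lowest, median, highest) in the oil period, against 3.92, 5.21 and 5.85 in the control period. Its ranges overlapped, but 17 of the 28 oil arrays lay above the highest control array. ATP5MC1 rose by 0.92 ± 0.10 (1.89-fold, adjusted p = 2.51e-07), and every cow but cow 16 was higher (26 of 27). ATP5MC3 had 9.81, 10.1 and 10.7 in the oil period and 9.47, 9.95 and 10.3 in the control period. It rose by 0.25 ± 0.05 (adjusted p = 3.80e-04) in 24 of 27 cows. ATP5MC2 went the other way. Its levels were 9.05, 9.48 and 10.9 in the oil period and 9.18, 9.82 and 10.6 in the control period, the highest oil array being that of cow 10, which stands apart. ATP5MC2 fell by 0.23 ± 0.07 (adjusted p = 0.0144), with 22 of 27 cows lower. It had no call without the cow block (-0.21, adjusted p = 0.0738) or with array number (-0.094, adjusted p = 0.748). The change of ATP5MC1 exceeded that of ATP5MC2 in 24 of 27 cows and that of ATP5MC3 in 25, and the change of ATP5MC3 exceeded that of ATP5MC2 in 24.

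The catalytic F1 head of the ATP synthase did not move as one. ATP5F1A encodes the alpha and ATP5F1B the beta subunit, which together form the ring that makes ATP. ATP5F1A changed by -0.09 ± 0.05 (adjusted p = 0.226). ATP5F1B had levels of 9.21, 9.60 and 9.89 in the oil period, against 9.28, 9.70 and 10.1 in the control period. It was lower on oil in 23 of 27 cows and fell by 0.14 ± 0.04 (adjusted p = 0.00601). ATP5F1C encodes the gamma subunit, the shaft that turns inside the ring. Its levels were 9.86, 10.2 and 10.6 in the oil period, against 9.27, 9.91 and 10.2 in the control period, and 18 of 28 oil arrays lay above every control array. ATP5F1C rose by 0.34 ± 0.05 (adjusted p = 6.13e-06) in 26 of 27 cows. ATP5F1D encodes the delta subunit at the foot of the same shaft. It had 4.61, 6.02 and 6.46 in the oil period, against 4.27, 6.36 and 6.87 in the control period, and 24 of 28 oil arrays lay below the control median. ATP5F1D fell by 0.52 ± 0.12 (adjusted p = 0.00179), with 20 of 27 cows lower. With array number in the fit, ATP5F1B and ATP5F1D had the opposite sign, at 0.22 (adjusted p = 0.0829) and 0.69 (adjusted p = 0.0588).

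The peripheral stalk holds the F1 head still against the turning ring. Of its 4 genes 3 rose, where 18.8% of all probe sets rose. ATP5PO, the subunit at the top of the stalk that confers sensitivity to oligomycin, had levels of 8.77, 9.12 and 9.44 in the oil period, against 8.30, 8.74 and 9.32 in the control period. All 28 oil arrays lay above the control median. ATP5PO rose by 0.36 ± 0.06 (adjusted p = 2.58e-05) in 24 of 27 cows. It had no call within prefix 1 (0.050, adjusted p = 0.823), which held 2 control arrays, both apart. Nor had it with array number (0.043, adjusted p = 0.806). ATP5PD, the d subunit, rose by 0.23 ± 0.04 (adjusted p = 5.36e-05) in 25 cows and ATP5PF, coupling factor 6, by 0.11 ± 0.04 (adjusted p = 0.0233) in 23, although ATP5PF was at -0.039 within prefix 1. ATP5PB, the b subunit, changed by 0.09 ± 0.04 (adjusted p = 0.105).

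Small membrane subunits at the base of the synthase help it to pair up and bend the cristae. All 4 of those measured rose, where 18.8% of all probe sets rose. ATP5MF, the f subunit, had 8.74, 9.04 and 9.39 in the oil period and 8.38, 8.66 and 9.17 in the control period. Every oil array lay above the control median, and the rise was 0.37 ± 0.05 (adjusted p = 3.16e-06) in 25 of 27 cows. Within prefix 1, which held 2 control arrays, both apart, it was at 0.0041 (adjusted p = 0.986). With array number it was at 0.19 (adjusted p = 0.166), and neither was called. ATP5ME, the e subunit, rose by 0.32 ± 0.05 (adjusted p = 4.99e-05) in 24 cows, with 19 of 28 oil arrays above every control array. ATP5MJ rose by 0.23 ± 0.04 (adjusted p = 1.26e-04) in 24 cows and ATP5MK by 0.19 ± 0.07 (adjusted p = 0.0327) in 20. ATP5MK was at -0.035 within prefix 1 and at -0.091 with array number. ATP5IF1 encodes the inhibitor that stops the synthase from running backwards and splitting ATP. Its levels were 8.98, 9.38 and 10.2 in the oil period, against 8.43, 8.88 and 10.1 in the control period. All 28 oil arrays lay above the control median, and the highest control arrays were among those that stand apart. ATP5IF1 rose by 0.44 ± 0.08 (adjusted p = 1.39e-04) in 24 of 27 cows, or by 0.51 without the 6 cows with an array apart. It was at -0.33 within prefix 1, where the control array of cow 1, which stands apart, held the highest control level of all. With array number it was at -0.17, and neither was called (adjusted p = 0.306 and 0.488).

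Counted cow by cow, the members leaned the same way in most animals. The number of the 44 genes that were higher on oil ran from 20 to 37 per cow with a median of 29. More than 22 members were higher in 24 of 27 cows: all 7 on rapeseed oil, all 7 on soybean oil, 4 of 6 on linseed oil and 6 of 7 on the mixture. The other cows were cow 5 and cow 8 on linseed oil (21 members each) and cow 16 on the mixture (20 members). Over all probe sets, the share higher in the oil period lay between 46.6% and 55.8% per cow with a median of 51.9%.

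**Figure D3:**
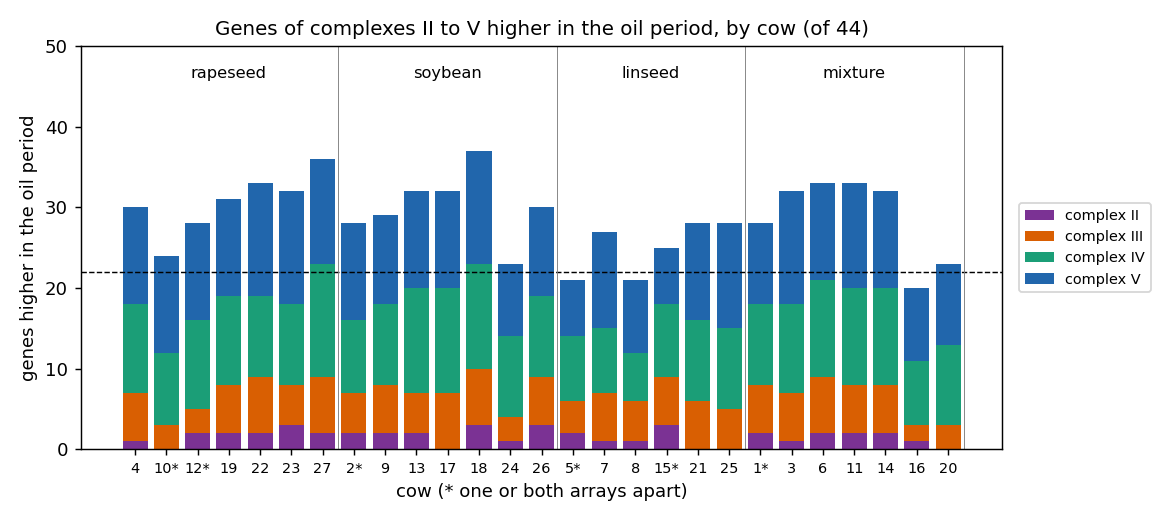
Number of the 44 genes whose level was higher on oil, for each of 27 cows ordered by oil; stacked colours give the complexes, the dashed line marks 22 genes, and stars mark cows with an array that stands apart. Bars run from 20 to 37, and 24 of 27 pass the line.

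Taken oil by oil, each with 6 or 7 cows, fewer members passed. The p-values of limma were adjusted for each oil apart, so counts of calls do not compare directly between oils. On soybean oil ATP5PO passed with p = 0.00595 (adjusted p = 0.0462). On the mixture ATP5ME did not pass with p = 0.00123 (adjusted p = 0.108). On rapeseed oil 8 members rose and 1 fell, where 1.54% of all probe sets rose and 2.33% fell. Soybean oil had 17 rises and 3 falls, against a background of 6.29% and 7.22%. Linseed oil had 2 rises and 0 falls (background 0.403% and 0.89%), and the mixture 1 rise and 0 falls (background 0.131% and 0.0187%). Once cows with an array apart were left out, the rises and falls were 6 and 0 on rapeseed oil, 13 and 2 on soybean oil, 0 and 1 on linseed oil and 3 and 0 on the mixture. The median change of the members was 0.17 on rapeseed oil, 0.16 on soybean oil, 0.12 on linseed oil and 0.19 on the mixture.

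ATP5MC1 had the largest positive change among the members on every oil. On rapeseed oil its levels were 4.91, 5.80 and 6.74 (lowest, median, highest), against 4.08, 5.07 and 5.49 in the same cows on the control diet, a rise of 1.15 ± 0.20 (adjusted p = 0.00413) in 7 of 7 cows. On soybean oil they were 5.72, 6.20 and 6.85, against 4.68, 5.24 and 5.76 on control, a rise of 0.98 ± 0.20 (adjusted p = 0.00279) in 7 of 7. On linseed oil they were 5.20, 5.94 and 6.52, against 3.92, 5.34 and 5.85 on control, a rise of 0.89 ± 0.22 (adjusted p = 0.0416) in 6 of 6. The lowest control value there is that of cow 5, which stands apart; leaving out the linseed cows concerned gave a change of 0.59 (adjusted p = 0.236). The mixture gave 5.18, 5.90 and 6.44, against 4.93, 5.21 and 5.65 on control, a change of 0.67 ± 0.20 that did not pass (adjusted p = 0.142), higher in 6 of 7 cows. With the 1 mixture cow with an array apart left out, ATP5PO (0.56) lay above ATP5MC1 (0.54) on the mixture.

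UQCRC1 had the most negative change on every oil. It fell by 0.76 ± 0.22 on rapeseed oil (adjusted p = 0.0460, lower in 7 of 7 cows) and by 0.87 ± 0.22 on soybean oil (adjusted p = 0.00921, lower in 6 of 7). Its changes on linseed oil and on the mixture were -0.80 ± 0.23 (adjusted p = 0.0771, lower in 4 of 6) and -0.63 ± 0.22 (adjusted p = 0.193, lower in 7 of 7), which did not pass. Without the cows with an array apart it was at -0.69 on rapeseed oil (adjusted p = 0.0972) and at -1.23 on linseed oil (adjusted p = 0.0437). The other members called on rapeseed oil were UQCRH (0.41), UQCR10 (0.56), ATP5PD (0.27), ATP5PO (0.48), ATP5MF (0.44), ATP5MJ (0.33) and ATP5IF1 (0.67). With the rapeseed cows with an array apart left out, UQCRH, ATP5PD (adjusted p = 0.173) and ATP5PO (adjusted p = 0.0625) had no call, and COX7B of complex IV rose (0.59, adjusted p = 0.0294). On soybean oil, complex IV had 6 rises and 1 fall: COX6A1 (0.41), COX7B (0.45), COX8A (0.47), COX6B2 (0.43), COX8B (0.66) and COX11 (0.53) rose, and COX19 fell (-0.42). ATP5F1B (-0.24) also fell on soybean oil. The other soybean rises were those of UQCRQ (0.30), UQCR10 (0.70), UQCR11 (0.48), ATP5F1C (0.42), ATP5PD (0.25), ATP5PO (0.31), ATP5ME (0.48), ATP5MF (0.48), ATP5MJ (0.32) and ATP5IF1 (0.53). Without the soybean cow with an array apart, UQCRQ (adjusted p = 0.0963), COX6B2 (0.0740) and ATP5PD (0.0568) had no call. Nor had ATP5PO (0.0729) and the fall of ATP5F1B (0.127). The single other rise on linseed oil was that of ATP5F1C (0.43, adjusted p = 0.0412), which had no call without the cows with an array apart (0.37, adjusted p = 0.138). On the mixture only ATP5PO rose, by 0.49 ± 0.11 (adjusted p = 0.0494) in 7 of 7 cows.

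**Figure D4:**
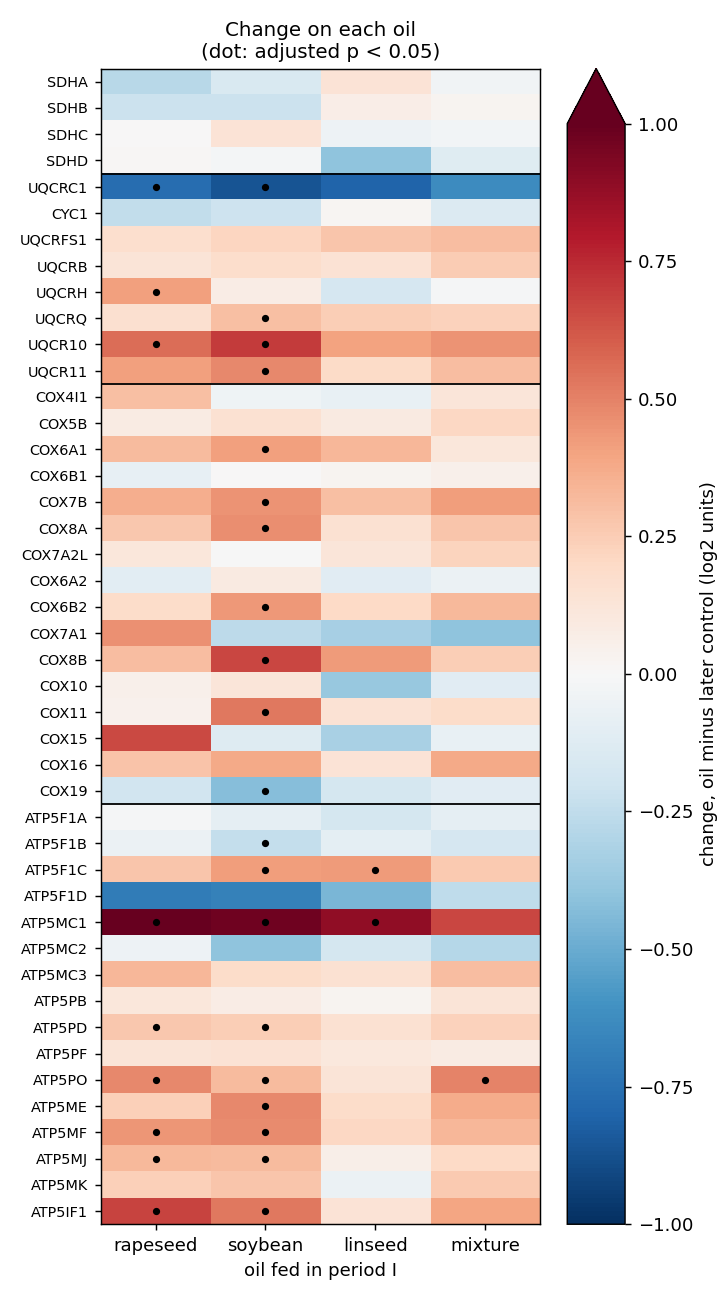
Change of each member on each oil, oil period minus control period of the same cows, as colour in log2 units; dots mark an adjusted p under 0.05 and black lines separate complexes II, III, IV and V. ATP5MC1 is red and UQCRC1 blue in all 4 columns, and 20 members carry a dot on soybean oil.

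A call on 1 oil and not on another is no difference between them, so the changes themselves were compared over the 4 oils. None of the 44 members differed between oils by limma's moderated F (0 of all probe sets, 0%), and the lowest adjusted p among them was 0.948. At an unadjusted p under 0.05 the F test had 2 members, UQCRH and COX15, where 4.55% of all probe sets passed. UQCRH changed by 0.41 ± 0.11 on rapeseed oil (adjusted p = 0.0350, 6 of 7 cows higher), 0.07 on soybean oil, -0.17 on linseed oil and -0.02 on the mixture (p = 0.00897 for the difference). Its change on rapeseed oil was 0.25 without the cows with an array apart (adjusted p = 0.200). COX15 changed by 0.66 on rapeseed oil (7 of 7 cows higher), -0.13 on soybean oil, -0.33 on linseed oil and -0.07 on the mixture (p = 0.0157). COX11 came next, at 0.04, 0.53, 0.15 and 0.19 in the same order of oils (p = 0.0575).

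The diets were also compared between cows within each period. Over the 28 oil period arrays 0 members differed between diets (0% of probe sets), and 1 had an unadjusted p under 0.05, where 2.59% of all probe sets passed. That was COX15 (p = 0.00795, adjusted p = 1.00), with a median of 3.82 (3.11 to 4.41) on rapeseed oil, 3.15 (2.37 to 3.83) on soybean oil, 3.09 (2.78 to 3.58) on linseed oil and 3.39 (2.55 to 3.73) on the mixture. All 4 ranges overlapped. In the control period, when every cow had the same diet, 0 members differed by former oil (0% of probe sets), and 1, COX10, had an unadjusted p under 0.05 (p = 0.0325), where 3.72% of all probe sets passed.

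The change of the members was also taken with other settings, among them array number and name prefix, since both run with period. Without the cow block 24 members rose and 4 fell (background 17.5% and 13.9%), with each array centred on its median 26 and 4 (29.4% and 11.5%), and leaving out the 6 cows with an array apart 24 and 5 (18.9% and 15.9%). Array number is higher by 28 in the control period than in the oil period in every cow, so it was fitted without the cow. In the oil period it is the cow number itself. Its slope therefore rests on differences between cows, and this fit cannot tell array number apart from them. Then 7 members rose and 1 fell, where 3.73% of all probe sets rose and 2.97% fell. ATP5MC1 (1.07), COX8A (0.43), ATP5F1C (0.37), ATP5ME (0.37) and ATP5MJ (0.27) still rose, joined by SDHA (0.59) and CYC1 (0.79), and SDHC (-0.31) fell. Of the 29 members called with the cow as a block, 7 had the opposite sign, among them 4 of the 5 that fell. Within prefix 1 there were 2 rises, COX11 (0.65) and ATP5F1C (0.51), and 0 falls (background 1.94% and 3.65%). Within prefix 2 there were 2 rises, UQCR10 (0.54) and ATP5ME (0.45), and 3 falls, UQCRC1 (-1.05), COX10 (-0.54) and ATP5F1D (-1.07) (background 2.13% and 1.65%). Prefix 1 held 2 control arrays, both apart, and prefix 2 held 3 oil arrays. With the prefix beside the cow, only the 5 cows with both arrays under 1 prefix carry the estimate, and 18 members rose and 5 fell (background 8.01% and 7.40%). Through 7 such alternatives, 20 of the 24 rises and 1 of the 5 falls (ATP5MC2) kept their sign, and 0 were called in all 7. ATP5F1C and ATP5ME were called in 6. Of the falls, UQCRC1 and ATP5F1D were called in 5, and ATP5MC2, COX19 and ATP5F1B in 3.

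**Figure D5:**
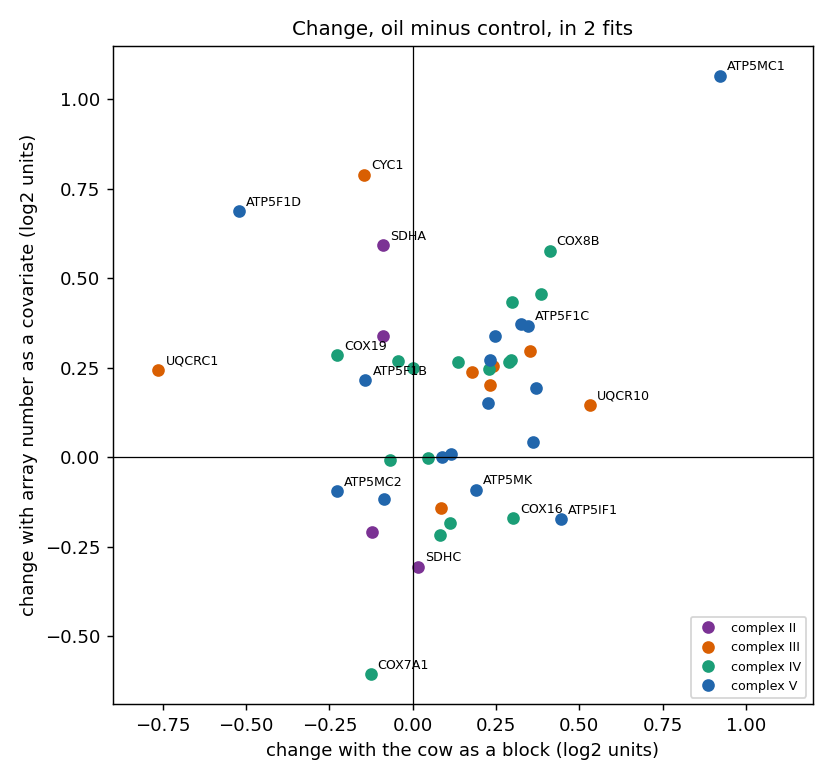
Change of each of the 44 genes, oil period minus control period in log2 units, with the cow as a block (horizontal axis) and with array number as a covariate without the cow (vertical axis). ATP5MC1 lies far up on the right in both, while UQCRC1, ATP5F1D, ATP5F1B and COX19 are negative on the horizontal axis and positive on the vertical.

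RNA quality measures, a spiked control and cell type markers were also compared between the periods. The difference between the 3′ and 5′ probe sets of GAPDH had a median of 0.41 in the oil period, against 0.02 in the control period, and was higher on oil in 22 of 27 cows. The same difference for actin had a median of 0.68, against 0.83 in the control period, and was lower on oil in 20 of 27 cows. For EF1A it was higher on oil in 15 of 27 cows. The bioB spike, which is added to every sample, had a median level of 7.15 in the oil period, against 6.45 in the control period, and was higher on oil in 22 of 27 cows. The counts of the marker lists stand beside 18.8% of all probe sets that rose and 15.6% that fell. Of the marker lists, milk secretory cells had 0 of 8 genes called, with a median change of -0.05. Fibroblast markers fell in 5 of 9 and rose in 0, and their list mean ran from 6.78 to 9.90 in the oil period, against 6.99 to 10.1 in the control period. Endothelial markers fell in 4 of 9 and rose in 0 (list mean 3.91 to 4.94 in the oil period, 4.03 to 5.38 in the control period), and luminal epithelial markers fell in 4 of 8 (5.89 to 7.62 in the oil period, 6.05 to 8.26 in the control period). Macrophage markers fell in 2 of 8 (4.16 to 5.62 in the oil period, 4.37 to 6.20 in the control period), myoepithelial markers in 1 of 6 and erythrocyte markers in 1 of 4. Adipocyte markers rose in 3 of 7 and fell in 1, and T and NK cell markers rose in 1 and fell in 1 of 8. Without the 6 cows with an array apart, 2 milk secretory genes fell, CSN1S1 (-0.12, adjusted p = 0.0144) and XDH (-0.14, adjusted p = 0.0476), macrophage falls numbered 4, myoepithelial falls 2 and adipocyte rises 5. With array number in the fit, the endothelial genes ENG (1.09), CDH5 (0.28) and TIE1 (0.08) and the luminal gene CLDN3 (0.30), which had fallen, turned to a positive sign. The adipocyte gene PLIN1 (-0.024), which had risen, turned to a negative one. The part of RNA quality and of cell makeup in the changes of the members was not tested.

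Genes that work around complexes II to V were counted by list, where 18.8% of all probe sets rose and 15.6% fell. In complex IV assembly outside the COX names, 5 of 6 measured genes rose and 0 fell, led by COA3 (0.32 ± 0.05, adjusted p = 3.03e-05), the copper carrier SCO1 (0.30 ± 0.06, adjusted p = 1.86e-04) and NDUFA4 (0.36 ± 0.09, adjusted p = 0.00279), a subunit of complex IV with a complex I name. For complex V assembly, 2 of 5 rose, FMC1 by 0.50 and TMEM242 by 0.28. In complex II assembly 1 of 3 rose, SDHAF2, which inserts FAD into SDHA, by 0.28, and in complex III assembly 0 of 3 were called (lowest adjusted p = 0.0710, BCS1L). With array number in the fit FMC1, TMEM242 and SDHAF2 had the opposite sign.

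Of 34 genes with names of complex I subunits, NDUFA4 among them, 20 rose and 0 fell, with a median change of 0.24, led by NDUFS4 (0.69), NDUFB4 (0.43) and NDUFB8 (0.31). The fuel side was mixed, where 18.8% of all probe sets rose and 15.6% fell. In the citrate cycle and pyruvate dehydrogenase list 4 of 13 rose and 1 fell, and the genes of smallest p were fumarase FH (0.32), malate dehydrogenase MDH2 (0.43) and the oxoglutarate dehydrogenase gene OGDH, which fell (-0.61). Among other donors of electrons to ubiquinone, 2 of 7 rose, the electron transfer flavoprotein genes ETFA (0.27) and ETFB (0.25), and 1 fell, the sulphide quinone oxidoreductase SQOR (-0.60). Of the carriers and porins, 2 of 7 rose, the phosphate carrier SLC25A3 (0.21) and the dim creatine kinase CKMT2 (0.21), and 1 fell, the ADP/ATP carrier SLC25A6 (-0.53).

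Regulators of mitochondrial biogenesis rose in 3 of 5 and fell in 1, or in 1 and 1 when the cows with an array apart were left out. Beside these lists, 18.8% of all probe sets rose and 15.6% fell. PPARGC1A, a coactivator of mitochondrial genes, rose by 0.30 ± 0.11 (adjusted p = 0.0353) and the mitochondrial transcription factor TFB2M by 0.31 ± 0.08 (adjusted p = 0.00517), and the transcription factor YY1 fell by 0.47 ± 0.06 (adjusted p = 7.16e-07) in 26 of 27 cows. PPARGC1A was dim and had no call without the cows with an array apart (0.31, adjusted p = 0.0606). Import and cristae genes rose in 2 of 11, TOMM20 (0.32) and CHCHD3 (0.25), and fell in 3, led by the prohibitin PHB2 (-0.49). Coupling and uncoupling genes rose in 2 of 3, UCP3 (0.21) and SLC25A14 (0.23), both dim. OGDH, SLC25A6 and PHB2, which fell with the cow as a block, turned to a positive sign with array number in the fit, and ETFA, CKMT2 and SLC25A14 to a negative one. Other called genes of these lists that turned were TOMM40 (0.18), SUCLG2 (-0.097), FASTKD2 (-0.074) and NDUFS5 (-0.13).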

How the data were processed

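Total RNA (2 micrograms) of mammary biopsies was measured on 1-colour Affymetrix bovine arrays. RMA and GCRMA are named in the submitters' processing notes, with no step or version given. The deposited values are intensities per probe set on a linear scale, and log2 was taken here with no further scaling. Of 11495 probe sets, 112 were controls, and 703 of the other 11383 held values identical to another row and were merged, which left 10680. RefSeq accessions named 6649 of them, while 2 matched several symbols and were left unnamed. Each member had 1 row, and 3 members (COX5B, COX6A1, SDHC) shared theirs with an identical unnamed row. The number of arrays limits the precision.

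With limma 3.58.1 (R 4.3.3), period effects were estimated with a fixed block for cow, pooled over oils and, in a second fit, per oil; differences between oils were tested with the moderated F. P-values are two-sided and Benjamini-Hochberg adjusted over all 10680 probe sets. Arrays are paired by cow, since 1 animal gave both: the deviations of a pair had a median correlation of 0.192 (-0.344 to 0.665, over 0.1 in 18 of 27 cows), against 0.0167 between cows. Scripts were tested on simulated data.

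The members, the gene and marker lists, the tests and the rule for the genes given in detail were chosen with earlier results of these data known. That rule took, in each complex, the 4 called members with the smallest p in each direction, the largest change on each oil, the 3 smallest p between oils and within each period, and members with isoforms or paralogues; from each list up to 3 genes with the smallest p. Alternatives were no cow block, centring each array on its median, a minimum mean level of 4, the name prefix, array number, leaving out cows with an array whose mean correlation with the others was under 0.96, and the row with the lowest mean.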

Additional observations from a re-analysis of the deposited data

Results flagged for a closer look

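Within the 7 cows of each oil, a member's level in the oil period was marked where its highest or lowest cow lay far from the nearest other cow for the range of the group (Dixon's test at the 95% level). This marked 7 of 176 sets of 7 cows, where chance alone marks about 1 in 20, or 8. UQCR10 was lowest in cow 25 on linseed oil (8.10, the next being 8.37). COX7A2L was highest in cow 5 on linseed oil (8.24, next 7.33), and the same array had the highest ATP5PB (10.7, next 10.5). Cow 13 on soybean oil had the highest COX6A2 (2.64, next 2.15) and the lowest ATP5F1A (9.61, next 10.1). ATP5MC2 was highest in cow 10 on rapeseed oil (10.9, next 9.80), and ATP5ME was highest in cow 14 on the mixture (10.6, next 10.3). The 3 values of cows 5 and 10 come from arrays that stand apart. No cause was tested.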

How the results depend on the processing

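Without the replicate block (period alone, all 55 arrays), 24 members rose and 4 fell, against 24 and 5 with it, and on single oils the rapeseed falls, the linseed rises and the mixture rises came to 0 each. Median centring shifted all probe sets by 0.06 and gave 26 rises and 4 falls, so 86.7% of called members were higher, against 82.8% uncentred (71.9% against 54.6% over all probe sets); rapeseed falls came to 0. A minimum level of 4 left 38 members, with 22 rises and 4 falls. Leaving out the 6 cows with an array apart changed the call of none of the 44 in the pooled comparison, but gave 0 rapeseed falls, 0 rises and 1 fall on linseed oil and 3 rises on the mixture. The row with the lowest mean gave the same values, each member having 1 row. Between oils and within a period, where only median centring and leaving out the cows or arrays apart were run, both gave 0 calls.

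With the prefix beside the cow, 18 rose, 5 fell and the median change was 0.26. Calls numbered 2 and 0 (higher and lower) within prefix 1, 2 and 3 within prefix 2, and 7 and 1 with array number. The opposite sign was seen for 17 members with array number (7 of them called with the cow as a block), 12 within prefix 1 (4 called), 1 within prefix 2 and 6 with the prefix beside the cow (0 called in both). Among members and up to 3 genes per pathway list that either fit called, signs turned with array number for SDHA (0.59), SDHC (-0.31), UQCRC1 (0.24), CYC1 (0.79), COX16 (-0.17), COX19 (0.29), ATP5F1B (0.22), ATP5F1D (0.69), ATP5MK (-0.091), ATP5IF1 (-0.17), SDHAF2 (-0.46), FMC1 (-0.24), TMEM242 (-0.12), SLC25A6 (0.38), CKMT2 (-0.098), OGDH (0.14), ETFA (-0.12), PHB2 (0.34) and SLC25A14 (-0.037). By the same measure they turned within prefix 1 for COX19 (0.033), ATP5PF (-0.039), ATP5MK (-0.035), ATP5IF1 (-0.33), SDHAF2 (-0.072) and FMC1 (-0.0589), within prefix 2 for COA3 (-0.015), SLC25A3 (-0.087) and PPARGC1A (-0.071), and with the prefix beside the cow for SDHAF2 (-0.00893). These fits use fewer arrays or leave out the cow, and the cause of the turns was not tested.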
